A study of Mus musculus with 10 samples.

Results

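The semaphorin, plexin, neuropilin, Eph and ephrin genes are the receptors and ligands of 2 large systems of axon guidance. They were chosen by name, as every gene row of the deposited tables whose symbol follows the pattern of 1 of these families, with no measured value used. This gave 48 of 18754 gene rows: 17 semaphorins, 8 plexins, 2 neuropilins, 2 plexin domain containing genes (Plxdc1 and Plxdc2), 8 EphA and 4 EphB receptors, 4 ephrin-A and 3 ephrin-B genes. A further 7 genes of the same name patterns stood in the count files alone, with at most 10 counts each over all libraries.

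The libraries came from large motor neurons of the mouse lumbar spinal cord, cut out by laser as 1 pool of about 50 cells per animal. In 5 HSA-NRTN transgenic mice, neurturin, a ligand of the GDNF family, is made in skeletal muscle fibres from the promoter of human skeletal actin, and 5 wild-type littermates served as controls. Each group held 3 females and 2 males. Neither strain nor age is stated in the labels. Captured cells showed a nucleolus and exceeded 200 square micrometres in area, so small motor neurons were not sampled. By its promoter the transgene is expressed outside the captured cells, and Nrtn levels in the pools are not given here. The labels do not say how many transgenic lines were used.

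Semaphorins are secreted or membrane-bound ligands that signal through plexins, and most secreted members need a neuropilin as the binding subunit of the receptor. Eph receptors are tyrosine kinases bound by membrane-anchored ephrins, and signals pass both into the cell that carries the receptor and into the cell that carries the ephrin. In embryonic motor neurons EphA4, neuropilins and class 3 semaphorins steer motor axons in the limb and keep them bundled. Several of these genes stay active in adult spinal neurons. Plxdc1 and Plxdc2 encode membrane proteins that share a domain with plexins but are not semaphorin receptors of the plexin family.

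Gene counts per library ran from 1875971 in HSA-NRTN replicate 2 to 6641695, and 14090 to 19675 genes had a count. All 6 motor neuron markers listed, among them the choline transporter gene Slc5a7, were detected, with a summed level of 2139 to 3597 CPM (counts scaled to a common library size) in wild-type and 2817 to 4183 CPM in HSA-NRTN libraries. Markers of other cells summed to less. The 3 Schwann cell markers summed to 816 to 1528 CPM in wild-type and 978 to 1713 CPM in HSA-NRTN libraries. Nearly all of it was Pmp22. Inhibitory interneuron markers reached at most 172, excitatory ones 300 and fibroblast ones 352 CPM in any library. The 300 CPM, in wild-type replicate 5, were Slc17a6 alone. Of the 352 CPM, in wild-type replicate 4, Dcn made up 345 CPM. Oligodendrocyte markers summed to 193 to 600 CPM in wild-type and 243.8 to 1398 CPM in HSA-NRTN libraries, endothelial markers to 0.688 to 18.8 and 3.86 to 23.8 CPM, and microglial markers to 2.41 to 15.0 and 1.48 to 10.8 CPM. HSA-NRTN replicate 2 was highest for astrocyte, oligodendrocyte, endothelial and pericyte markers. In pools of cells, fewer cells of a type and less RNA per cell cannot be told apart.

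Wild-type motor neuron pools held RNA of both guidance ligands and guidance receptors. Levels between genes are compared in CPM per kilobase of annotated exon, as wild-type mean ± SD (n = 5). The ephrin gene Efna5 was highest of the 48, at 22.9 ± 7.12, followed by the neuropilin gene Nrp2 at 19.6 ± 3.79, the transmembrane semaphorin gene Sema6a at 19.5 ± 5.41 and Plxdc1 at 17.4 ± 3.74. The means of these 4 genes lay within the SD of Efna5 of each other, so their order was not resolved. On the scale of CPM, 26 members had a wild-type mean of at least 10 and 4 a mean of at least 100, and 34 had a count in all 10 libraries.

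Among the semaphorins, Sema6a was followed by Sema3a at 10.9 ± 1.14 CPM per kilobase, a secreted repellent that binds neuropilin-1, and by the secreted Sema3c at 8.17 ± 5.47. Sema3a varied least of all members tested, with a coefficient of variation of 17.2% over the 10 libraries. The leading plexins were all of class A, the signalling partners of the neuropilins, with Plxna4 at 6.33 ± 1.68, Plxna1 at 4.35 ± 1.49 and Plxna2 at 3.12 ± 1.25 CPM per kilobase. Plxnb1 and Plxnb3, of the plexin class that binds class 4 semaphorins directly, were too low to be tested. Among the Eph receptor genes, Epha5 led at 6.48 ± 3.10, then Epha10 at 4.48 ± 3.90 and Epha4 at 4.23 ± 1.18. Ephb6, whose kinase domain is inactive, was highest of the EphB genes at 3.84 ± 0.779, above Ephb1 at 2.42 ± 1.01 and Ephb2 at 0.600 ± 0.246. Of the ephrin-A genes, which encode lipid-anchored ligands, 3 were higher than all transmembrane ephrin-B genes, while Efna2 was too low to be tested. Efna3 was at 12.9 ± 5.76 and Efna1 at 6.81 ± 4.95, against 0.893 ± 1.04 for Efnb2, 0.850 ± 0.635 for Efnb3 and 0.0773 ± 0.0855 for Efnb1.

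**Figure D1:**
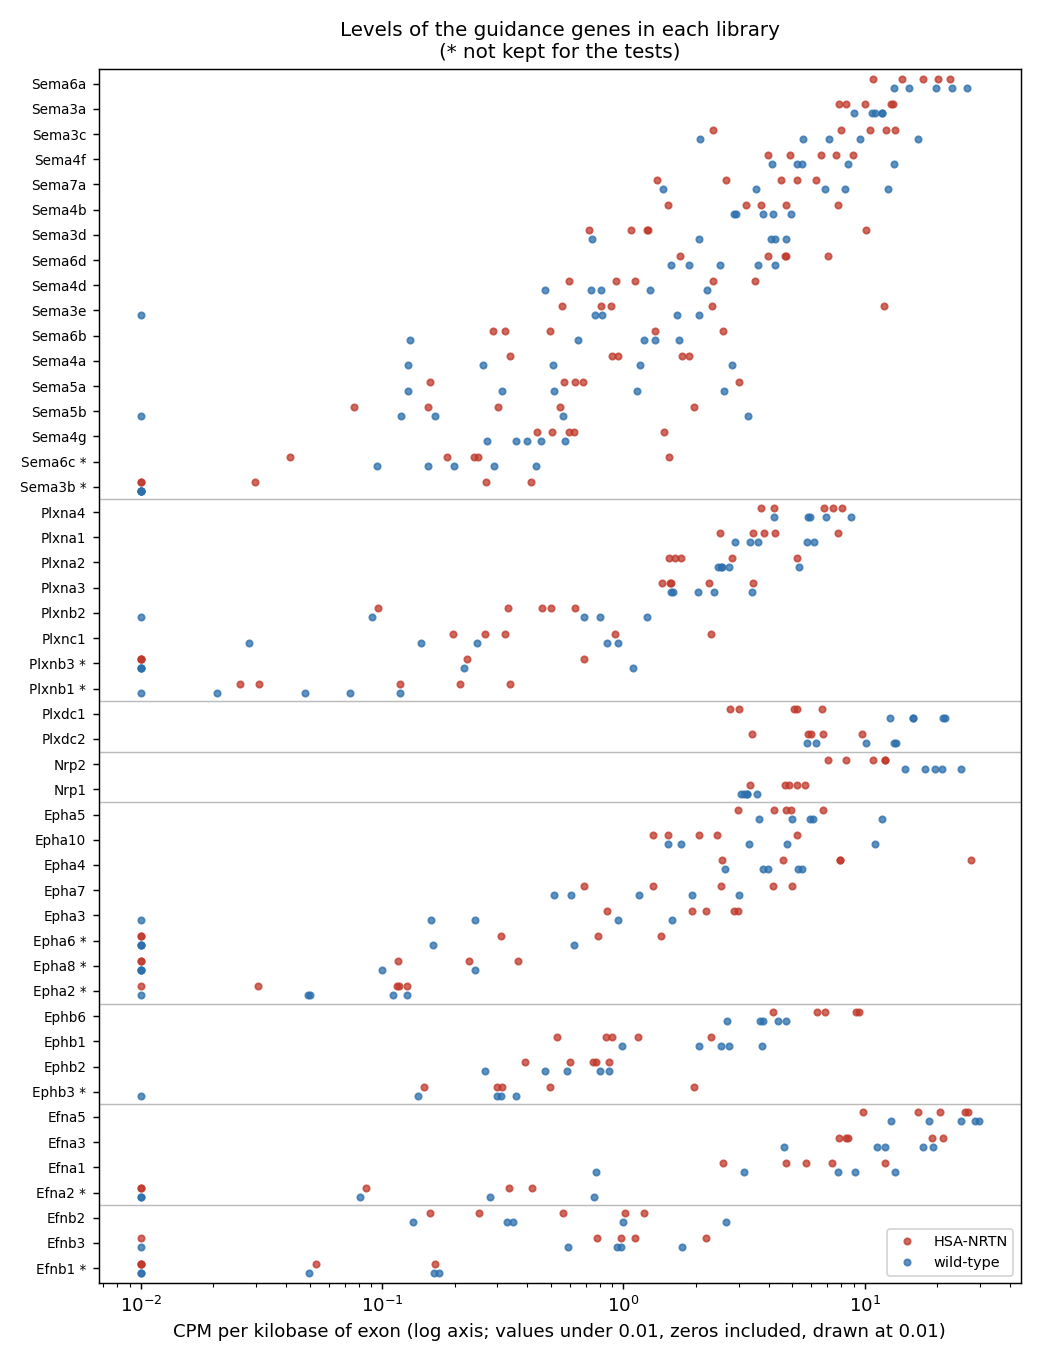
Level of each of the 48 guidance genes in each of the 10 libraries, in CPM per kilobase of exon on a log axis, with HSA-NRTN libraries in red and wild-type libraries in blue and families separated by lines. Plxdc1 and Nrp2 are the 2 rows in which the colours do not overlap, and Efna5, Nrp2, Sema6a and Plxdc1 reach the highest wild-type means.

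Of the 48 members, 38 had enough counts to be tested and 10 did not. The 10 were Efna2, Efnb1, Epha2, Epha6, Epha8, Ephb3, Plxnb1, Plxnb3, Sema3b and Sema6c. Sema3b, a secreted semaphorin, had 16 counts in HSA-NRTN libraries and 0 in wild-type libraries. All 16 were in the 3 female animals, with 7, 1 and 8 counts in HSA-NRTN replicates 3, 4 and 5. Against a floor of 3 counts over the wild-type group (0.130 CPM) its pooled level in HSA-NRTN libraries (0.7355 CPM) was 5.64-fold higher. The floor covers the counting error of the wild-type group only, and neither that of the 16 counts nor the spread between animals. Epha6 had 52 counts in transgenic and 19 in control libraries, spread over 5 of the 10, and Plxnb3 had 26 and 36 counts in 4 libraries. Of the genes outside the deposited tables, the endothelial receptor gene Ephb4 had 0 counts, which allows up to 0.0670 CPM over all libraries. Plxnd1, a plexin of blood vessels, had 1 count and Sema4c had 7 in transgenic and 3 in control libraries.

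For these genes, the genotypes were compared to ask whether neurturin from muscle goes with a change in the guidance receptors and ligands that motor neurons carry. The lowest p-values belonged to receptors. Plxdc1 was 3.82-fold and Nrp2 1.94-fold lower in HSA-NRTN than in wild-type pools, while Epha3, Epha4 and Ephb6 had higher means. None of the 38 had a Benjamini-Hochberg adjusted p under 0.05 by the quasi-likelihood test of edgeR, against 0.0086% of all 11630 genes tested. At an unadjusted p under 0.05, which 4.83% of all genes reached, there were 5 of 38 (13.2%). Of these 3 were higher, against 2.41% of all genes, and 2 lower, against 2.42%. DESeq2 called 2 members, Plxdc1 and Nrp2, both lower, against 0.8% of the genes it tested in either direction and 0.191% in that one. The same 2 were the members called in the authors' deposited table, where 1.05% of genes were called, 0.298% as lower. All 5 were receptors or receptor-like genes, among 18 tested, and the 20 ligands tested gave none. That receptors and ligands differ in this respect was not tested. The median log2 fold change was -0.05 over the 38 members, with 16 positive and 22 negative values, and -0.01 over all genes tested, of which 51.4% were negative. The median size of the log2 fold change, whatever its sign, was 0.74 for the receptors, 0.20 for the ligands and 0.30 for all genes tested. Within the receptors it was 0.19 for the 6 plexins, 0.91 for the 5 EphA genes and 0.91 for the 3 EphB genes. For the 2 neuropilins it was 0.75, and for Plxdc1 and Plxdc2 1.27.

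**Figure D2:**
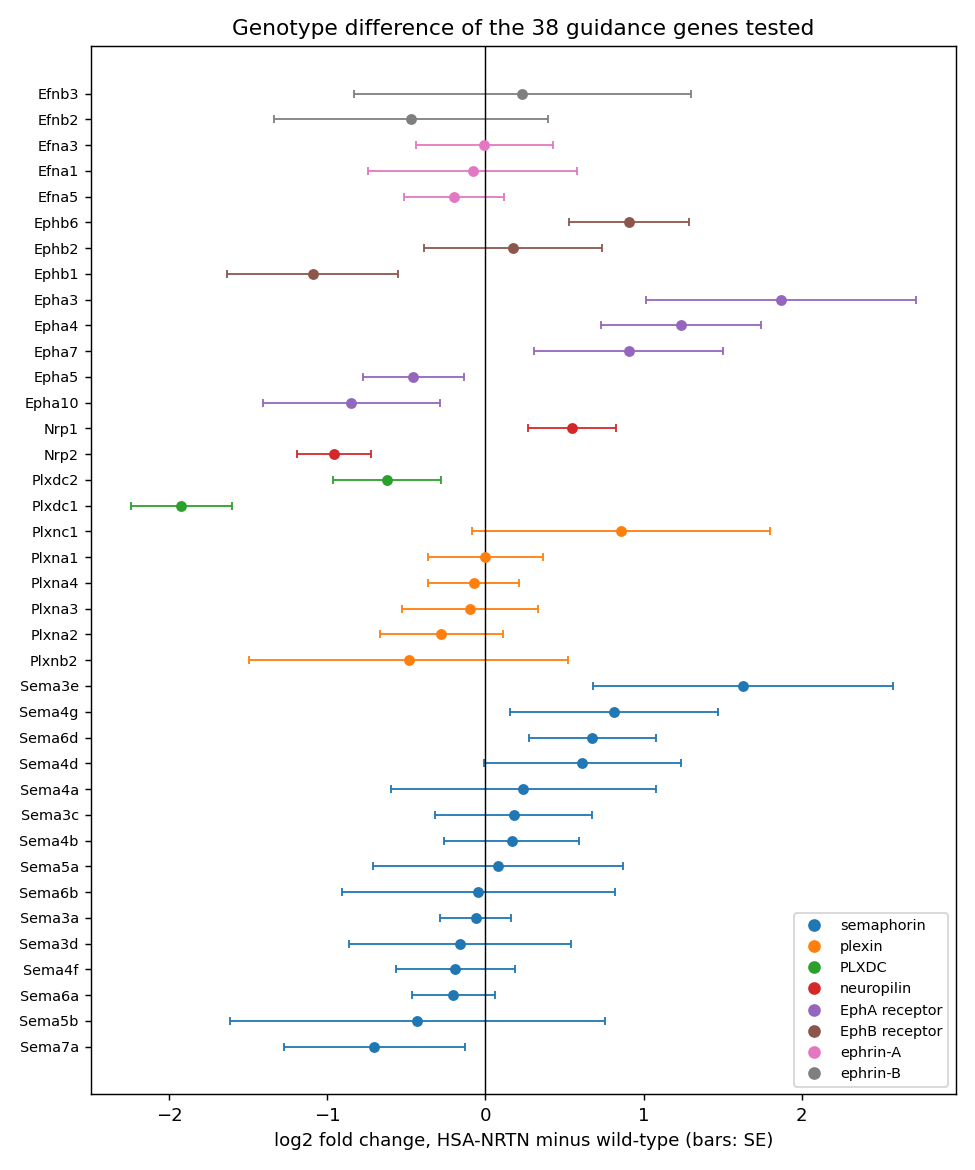
Log2 fold change, HSA-NRTN minus wild-type, of the 38 guidance genes tested, with bars of 1 SE and colours for the families. Plxdc1 at -1.92 and Nrp2 at -0.96 lie farthest below 0 in units of their SE, and the ligand genes of the ephrin-A family lie close to 0.

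Plxdc1, also known as a marker of tumour vessels and as a receptor of the secreted factor PEDF, was at 102, 76.5, 76.5, 103 and 61.7 CPM in wild-type replicates 1 to 5. In HSA-NRTN replicates 1 to 5 it was at 13.3, 14.6, 32.1, 24.5 and 25.4 CPM. Every HSA-NRTN library thus lay below every wild-type library, with a gap from 32.1 to 61.7 CPM between them. The log2 fold change was -1.92 (SE 0.32), and its adjusted p of 0.0501 in edgeR just missed the threshold. Groups that did not overlap were found for 2 of the 38 members, Plxdc1 and Nrp2, both lower in HSA-NRTN pools, against 0.602% of all genes in that direction, and for none in the other direction, against 0.645%. Plxdc1 (ENSMUSG00000017417) lies on the minus strand of chromosome 11 of GRCm38, from 97923238 to 97986444, and its exons overlap no other annotated gene. The summed endothelial markers overlapped between the groups. Over all libraries Kdr had 145 counts, Flt1 61, Pecam1 41, Tek 22, Cdh5 14 and Cldn5 1, and their part in the value of Plxdc1 was not tested.

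The call of Plxdc1 turned on the method. It passed in DESeq2 (adjusted p = 2.88e-06), with sex as a covariate (0.0145), with the robust fit (0.0456), with no filter beyond 1 count (0.00243), with sample quality weights in limma voom (0.0284) and with a covariate for genes detected (0.0407). Beside DESeq2, these settings called 0.043%, 0.0774%, 0.311%, 0.103% and 0.086% of their genes, in the same order. Its log2 fold change lay between -2.32 and -1.66 over 26 alternatives, at -1.76 in females alone and -2.32 in males alone. In the authors' deposited table its log2 fold change was -1.79 with an adjusted p of 2.38e-10. Leaving out 1 library gave adjusted p from 0.0363, without HSA-NRTN replicate 3, the highest transgenic library, to 0.194. The related gene Plxdc2, named after its values were seen, had overlapping groups at 40.2, 69.9, 93.8, 91.9 and 43.6 CPM in wild-type and 46.6, 23.8, 41.6, 40.3 and 67.6 CPM in transgenic libraries (log2 fold change -0.62, SE 0.34, adjusted p = 0.999 in edgeR). Per kilobase of exon, Plxdc1 stood at 1.17 to 3.65 times the level of Plxdc2 in wild-type and at 0.412 to 1.11 times in HSA-NRTN libraries.

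Nrp2 encodes neuropilin-2, which binds Sema3c and Sema3f and pairs with class A plexins. It was at 296, 231, 210, 174 and 246.5 CPM in wild-type replicates 1 to 5, and at 143, 144, 128, 98.5 and 83.1 CPM in HSA-NRTN replicates 1 to 5. No HSA-NRTN library reached the lowest wild-type library. The log2 fold change of -0.96 (SE 0.24) had an adjusted p of 0.336 in edgeR and 0.0132 in DESeq2. In the authors' deposited table it was -0.90 with an adjusted p of 0.00547. Over the 26 alternatives it ran from -1.19 to -0.75, negative in each, and in both sexes alone (-1.11 in females, -0.75 in males). Nrp2 (ENSMUSG00000025969) lies on the plus strand of chromosome 1, from 62703285 to 62818695.

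The other neuropilin gene, Nrp1, the receptor of Sema3a and a co-receptor of VEGF, had the opposite sign. It was at 30.8, 31.7, 31.7, 29.9 and 35.1 CPM in wild-type and at 55.5, 47.6, 51.3, 45.9 and 32.8 CPM in HSA-NRTN libraries, where replicate 5 alone lay within the wild-type range. Its log2 fold change was 0.55 (SE 0.28, adjusted p = 0.999 in edgeR). Within each library, where scaling between libraries plays no part, Nrp2 stood at 4.81 to 7.94 times the level of Nrp1 per kilobase in wild-type pools. In HSA-NRTN pools it stood at 1.77 to 2.498 times that level, so that the 2 ranges lay apart. This ratio was chosen after the values of both genes were seen and is given as a description. Nrp1 was not named by the rule for named genes.

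**Figure D3:**
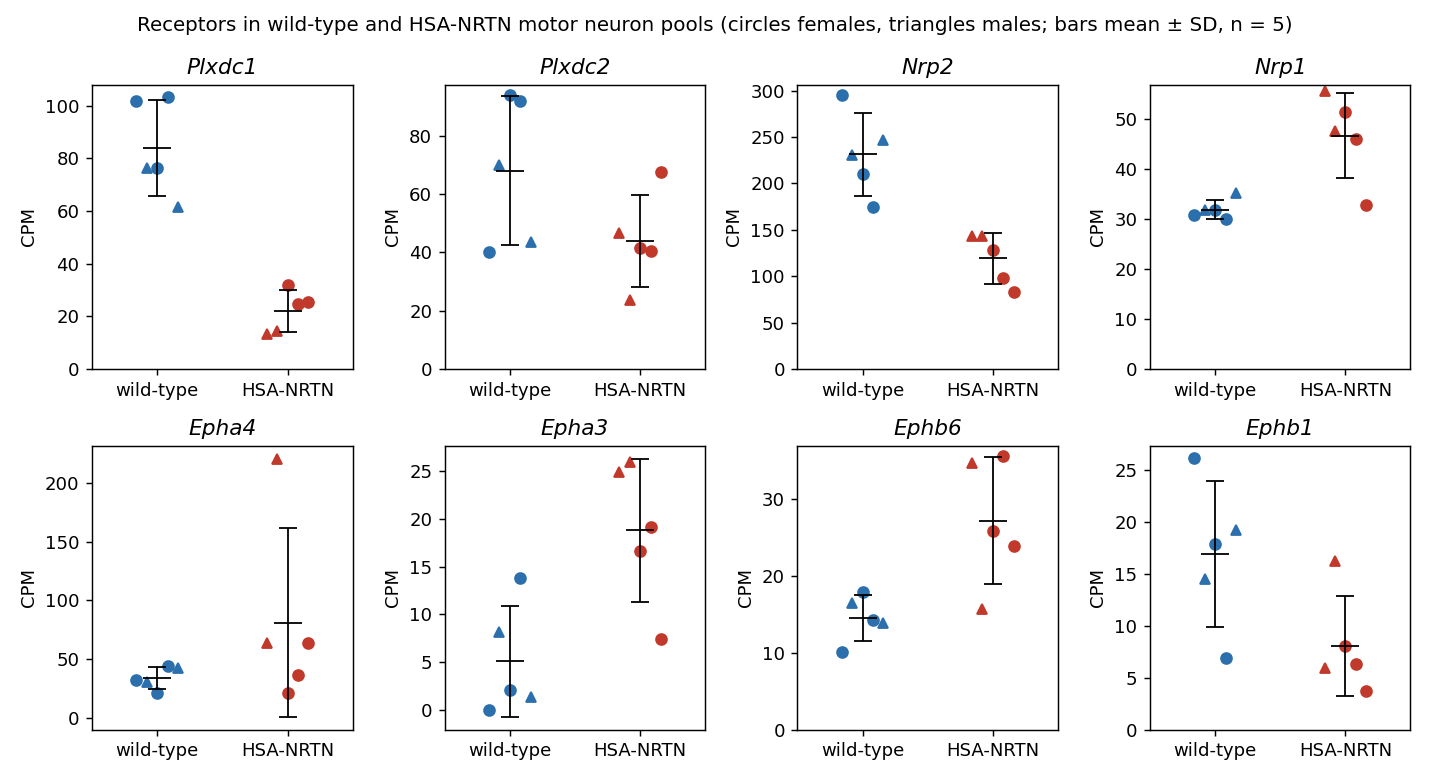
CPM of 8 receptor and receptor-like genes in each library, wild-type in blue and HSA-NRTN in red, with circles for females, triangles for males and bars for mean ± SD (n = 5). Plxdc1 and Nrp2 separate the genotypes, Nrp1 goes the other way with 1 library in the wild-type range, and the mean of Epha4 rests on 1 library at 221 CPM.

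A stretch before a transcript start of each neuropilin gene is printed from the RefSeq promoter table (GRCm38.p6), since their log2 fold changes had opposite signs and neither passed in edgeR. Sequences run 5′ to 3′ on the strand of the gene and hold no annotated exon base of it, at 218 bases for Nrp2 and 250 for Nrp1. The Nrp2 stretch ends where the gene begins in GENCODE M21. The Nrp1 stretch lies inside the annotated gene, which begins further upstream at 128358604, and so between exons of its earliest transcripts. Capitals mark the GC box GGGCGG, read on both strands, and the motif AAGGTCA of estrogen-related receptors, also on both strands.
Nrp2, chr1:62703067-62703284, plus strand: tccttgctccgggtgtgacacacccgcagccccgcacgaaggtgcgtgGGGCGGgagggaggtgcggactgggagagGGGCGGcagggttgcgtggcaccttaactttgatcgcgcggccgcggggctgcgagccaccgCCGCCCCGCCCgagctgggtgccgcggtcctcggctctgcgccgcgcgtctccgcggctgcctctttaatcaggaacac
Nrp1, chr8:128358823-128359072, plus strand: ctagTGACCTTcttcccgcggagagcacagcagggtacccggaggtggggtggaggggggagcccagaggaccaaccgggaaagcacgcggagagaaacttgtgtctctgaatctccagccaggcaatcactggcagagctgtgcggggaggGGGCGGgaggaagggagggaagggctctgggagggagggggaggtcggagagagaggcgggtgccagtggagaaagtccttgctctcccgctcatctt
The Nrp2 stretch holds 4 GC boxes, of which 2 on the opposite strand share a base, and no AAGGTCA. That of Nrp1 holds 1 GC box and 1 AAGGTCA, on the opposite strand. Of the 48 members, 41 had an upstream window of 250 bases in the RefSeq table, and Plxdc1, Plxdc2, Efnb3, Plxna1, Plxna4, Sema3b and Sema6a did not. A GC box stood in 25 of the 32 tested members with a window (78.1%), against 65.3% of 8749 tested genes. AAGGTCA stood in 3 of 32 (9.38%), Nrp1, Sema4b and Sema5a, against 3.32%. Also searched on both strands were CCAAT, in 11 of 32 (34.4%, against 41.1%), TATAAA, in 1 (3.13%, against 7.41%), and TGACGTCA and CCGGAAGT, each in 0 (against 3.27% and 7.01%). A match of letters does not show that a factor binds.

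Of the Eph receptors, Epha4 restricts motor axons to the dorsal limb in the embryo. It was at 31.9, 30.6, 21.1, 44.2 and 42.6 CPM in wild-type and at 63.8, 221, 20.7, 36.8 and 63.4 CPM in HSA-NRTN libraries. The lowest transgenic library lay below all wild-type libraries and 3 lay above them, with replicate 2 far apart. The log2 fold change of 1.24 (SE 0.51, adjusted p = 0.941 in edgeR) was 0.43 without HSA-NRTN replicate 2. That library also had the highest summed oligodendrocyte (1398 CPM) and astrocyte markers (105 CPM), against at most 600 and 81.0 CPM in the others. Its inhibitory interneuron markers summed to 161 CPM, below wild-type replicate 1 alone (172 CPM). The part of RNA of these other cells in the value of Epha4 was not tested.

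Epha3, a receptor of ephrin-A ligands that marks axial motor neurons in the embryo, was at 0, 8.21, 2.11, 13.8 and 1.39 CPM in wild-type and at 24.9, 25.9, 16.7, 19.1 and 7.40 CPM in transgenic libraries. HSA-NRTN replicate 5 lay below wild-type replicates 2 and 4, and the other transgenic libraries lay above all wild-type ones. The log2 fold change was 1.87 (SE 0.86, adjusted p = 0.999 in edgeR). With 1 library left out it ran from 1.54, without wild-type replicate 1, to 2.69, without wild-type replicate 4. Ephb6 was at 10.1, 16.4, 17.8, 14.3 and 13.9 CPM in wild-type and at 34.7, 15.7, 25.8, 35.6 and 23.9 CPM in HSA-NRTN libraries, so that replicate 2 alone lay within the wild-type range. Its log2 fold change was 0.91 (SE 0.38, adjusted p = 0.945 in edgeR). Ephb1, named after its values were seen, had the opposite sign, at 16.9 ± 7.04 CPM (SD, n = 5) in controls and 8.03 ± 4.83 CPM (SD, n = 5) in transgenic pools. Epha5, the highest EphA gene, was at 61.1, 83.5, 98.8, 197 and 103 CPM in wild-type and at 113, 49.7, 70.5, 79.2 and 83.1 CPM in HSA-NRTN libraries, with overlapping groups.

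No ligand had an unadjusted p under 0.05 between the genotypes. Sema6a, which signals through Plxna2 and Plxna4, was at 174, 202, 116, 134 and 232 CPM in wild-type and at 197, 177, 125, 94.9 and 153 CPM in HSA-NRTN libraries, and the groups overlapped. Sema3a was at 151 ± 15.8 against 145 ± 34.2 CPM (SD, n = 5 each), with a log2 fold change of -0.06 (SE 0.22). Efna5 was at 51.6, 101, 74.1, 115 and 119 CPM in wild-type and 82.4, 39.5, 105, 66.7 and 108 CPM in HSA-NRTN libraries (log2 fold change -0.20, SE 0.32). Efnb2, a transmembrane ligand also typical of arteries, was at 0.918, 2.27, 6.80, 18.2 and 2.38 CPM in wild-type and at 8.30, 1.08, 3.85, 6.98 and 1.73 CPM in transgenic libraries, low and with overlap. Sema3c, a ligand of neuropilin-2, was at 58.4 ± 39.1 against 66.2 ± 31.2 CPM (SD, n = 5 each). Log2 fold changes were positive for 8 and negative for 7 of the 15 semaphorins tested, and of the 3 ephrin-A genes none was positive.

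The plexins, which carry the signal of semaphorins into the cell, also overlapped between the genotypes. Plxna4 was at 97.8, 124, 83.3, 59.6 and 81.9 CPM in wild-type and at 104, 113, 59.3, 95.5 and 52.5 CPM in HSA-NRTN libraries, with a log2 fold change of -0.07 (SE 0.29). That of Plxna1 was 0.00 (SE 0.36), and none of the 6 plexins tested had an unadjusted p under 0.05.

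**Figure D4:**
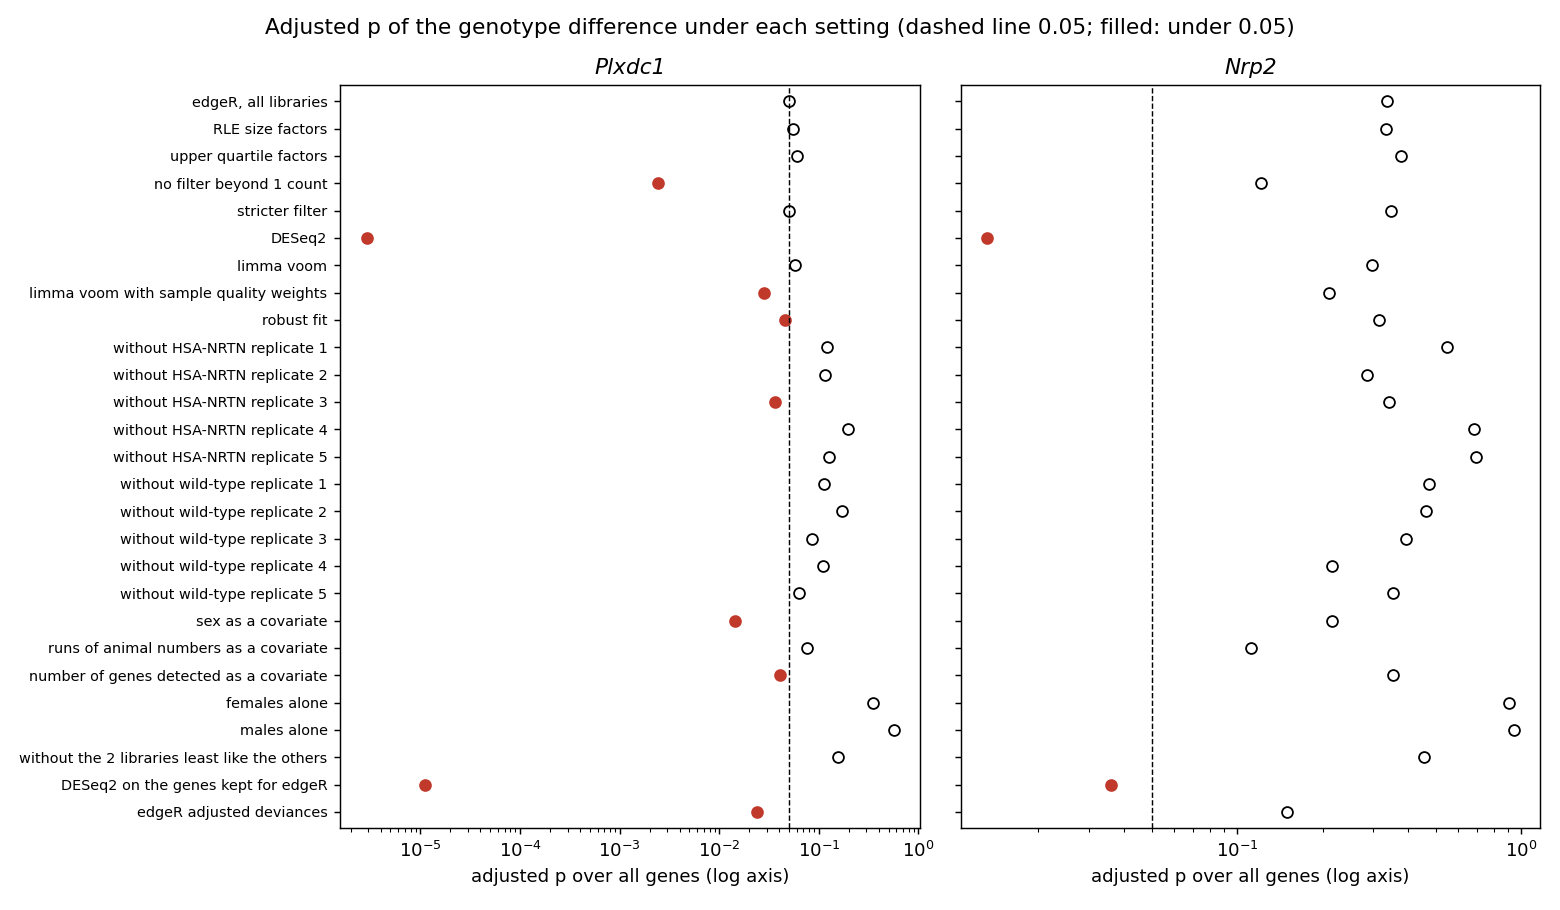
Adjusted p over all genes of the genotype difference of Plxdc1 and Nrp2 under each setting, on log axes, with filled points under 0.05 and a dashed line at 0.05. For Plxdc1 9 of 26 alternatives pass and the analysis with all libraries sits at 0.0501, and for Nrp2 the 2 DESeq2 settings pass.

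Genes that act with these families, and genes of other axon guidance families, were read from 3 lists, by counts only. Of 31 tested partners of semaphorins and plexins, such as the collapsin response mediator genes, 14 lay above and 17 below a log2 fold change of 0 (median -0.04), and none had an unadjusted p under 0.05. Of 23 tested partners of Eph receptors and ephrins 10 were positive and 13 negative (median -0.04), and 2 had an unadjusted p under 0.05, both lower, against 4.83% of all genes in either direction and 2.42% lower. Grip1, an adaptor that binds ephrin-B proteins and glutamate receptors, was at 59.7 ± 11.7 CPM (SD, n = 5) in controls and 32.2 ± 7.57 CPM (SD, n = 5) in transgenic pools, with no overlap, which 0.602% of all genes showed in that direction (log2 fold change -0.89, SE 0.29, adjusted p = 0.757 in edgeR). Vav2 had a log2 fold change of -1.10 (SE 0.42, adjusted p = 0.910 in edgeR). Of 19 tested netrin, Slit, Robo and related genes 11 were positive and 8 negative (median 0.10), with none under 0.05. No gene of the 3 lists passed over all genes.

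Sex was read from the same libraries, 6 female and 4 male, with genotype in the model. No member was called in edgeR, against 0.0086% of all genes, and DESeq2 called 1, Sema4d, against 1.77% of the genes it tested. With no filter beyond 1 count 2 were called, against 1.21%, and with sample quality weights in limma voom 1, against 0.43%. In edgeR 9 of 38 (23.7%) had an unadjusted p under 0.05, against 11.2% of all genes. Of these 9, 8 were higher in males, against 4.77% of all genes, and 1 in females, against 6.42%. Among the 8, 6 were semaphorins, Sema3d, Sema3e, Sema4d, Sema5a, Sema6a and Sema6b. In all, 14 of 15 tested semaphorins had a higher fitted level in males, Sema5b being the exception, with a median log2 difference, female minus male, of -0.61. Of all 38 members tested, 30 had a higher fitted level in males (median -0.38), and a difference between semaphorins and the other members was not tested. Over all genes tested that median was 0.01, and 49.2% had a higher level in males.

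Sema4d, a membrane-bound ligand of plexin-B receptors, was at 6.20, 5.63, 3.61, 4.58, 8.55 and 7.15 CPM in the females and at 17.0, 9.92, 18.1 and 27.0 CPM in the males, with no overlap (log2 difference -1.56, SE 0.50, adjusted p = 0.371 in edgeR). Sema6a was at 133 ± 27.7 CPM in females (SD, n = 6) and 202 ± 22.6 CPM in males (SD, n = 4), again with no overlap (log2 difference -0.61, SE 0.22, adjusted p = 0.399 in edgeR). Groups of the sexes did not overlap for 3 of 38 members, these 2 and Sema6b, against 2.27% of all genes. Sema3d had a log2 difference of -1.69 (SE 0.59, adjusted p = 0.399 in edgeR), and 1 male library, HSA-NRTN replicate 2, stood at 87.0 CPM. Without that library the difference was -0.64 (unadjusted p = 0.255 in edgeR), against an unadjusted p of 0.0126 with it. Plxdc1 was the single member of the 9 that was higher in females, by 0.69 on the log2 scale (SE 0.27, adjusted p = 0.406 in edgeR), and within each sex its wild-type libraries lay above its HSA-NRTN libraries.

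Males numbered 4, and 1 of them is the library with the fewest counts and the most glial RNA. Oligodendrocyte markers summed to 193 to 600 CPM in females and 243.8 to 1398 CPM in males, and motor neuron markers to 2139 to 3477 and 2438 to 4183 CPM. Without HSA-NRTN replicate 2, 14 of 15 semaphorins were still higher in males (median -0.64) and 4 had an unadjusted p under 0.05. Without HSA-NRTN replicate 1 there were 12 of 15 (median -0.53). Over the 10 sets that leave out 1 library, the share of members with an unadjusted p under 0.05 ran from 7.89%, without HSA-NRTN replicate 3, to 29.7%, without wild-type replicate 1. The shares of all genes in these fits were 7.19% and 18.1%. The part of depth and of other cells in the sex difference was otherwise not tested.

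**Figure D5:**
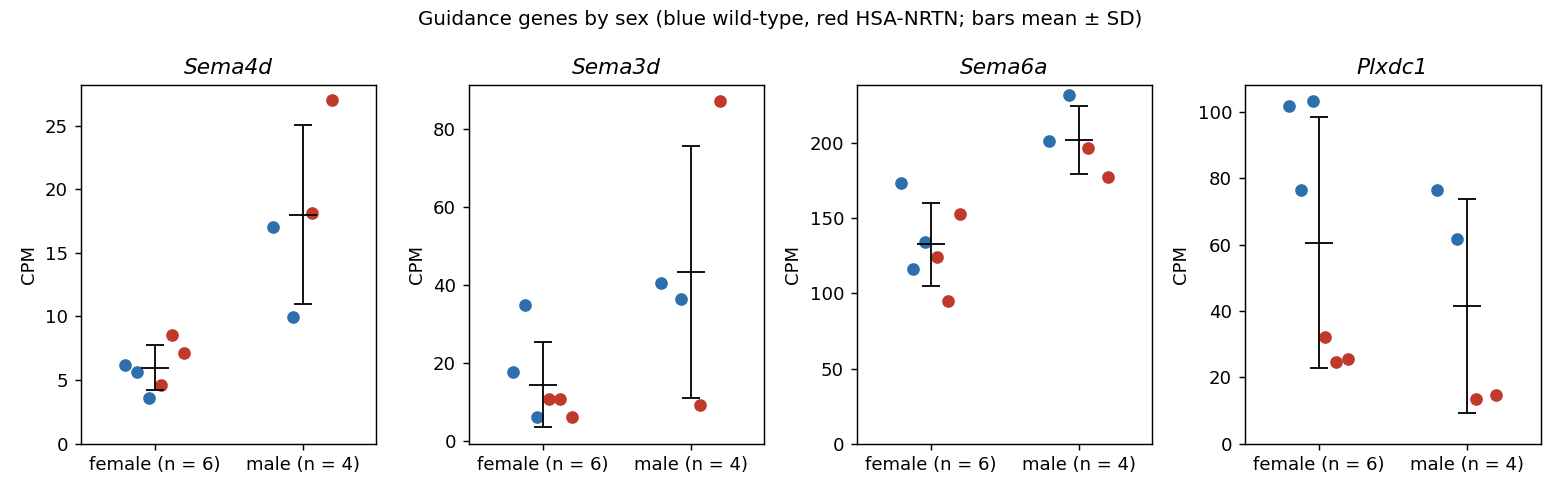
CPM of Sema4d, Sema3d, Sema6a and Plxdc1 in 6 female and 4 male libraries, wild-type in blue and HSA-NRTN in red, with bars for mean ± SD. Males lie above females for Sema4d and Sema6a, and Plxdc1 is split by genotype within each sex.

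The effect of genotype was not shown to differ between the sexes for any member. None of the 38 passed for the interaction of genotype and sex in edgeR, against 0.0% of all genes, or in DESeq2, and in edgeR 2 had an unadjusted p under 0.05, against 5.14% of all genes. These were Plxna2 (log2 interaction -1.68, SE 0.65, adjusted p = 0.922 in edgeR) and Epha7 (-2.72, SE 1.06, adjusted p = 0.922).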

How the data were processed

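The submitters' processing notes name STAR 2.5.0a, HTSeq, DESeq2 and the build GRCm38.p6. The annotation release and how reads were assigned to genes were not stated there. The deposited count files hold raw counts of Smart-seq2 libraries, a whole-transcript method without molecular identifiers or strand, per the labels' protocols. Gene counts made up 13.5% to 42.3% of all counts listed per library, tally entries and spike-ins included. A deposited table holds a signal, the counts divided by 1 DESeq2 size factor per library by the authors. The authors' deposited comparison gives log2 fold changes, a test statistic (a score) and p-values. Its log2 fold changes were smaller in size than those of DESeq2 here for several members, such as Epha3 (0.89 against 1.88) and Sema3e (0.58 against 1.64). Some went the other way, such as Sema3d (-0.27 against -0.14). The deposited values and those fitted here are therefore not on 1 scale.

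Counts were fitted in R 4.3.3 with edgeR 4.0.16 (filterByExpr, TMM, quasi-likelihood F test, 11630 genes), and p-values were adjusted by Benjamini-Hochberg over all of them. Tally entries and spike-ins stayed out. CPM use TMM-scaled library sizes, and exon lengths come from GENCODE M21. DESeq2 1.42.0 and limma 3.58.1 were alternatives. The genotype and sex tests in edgeR, DESeq2 and limma voom were also run on simulated counts, with a spread estimated from these same libraries. The outcome is not given here and nothing is drawn from it. The interaction and the sample quality weights were not simulated. The labels do not pair animals, and replicate numbers follow record order.

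The name rule used no measured value, but members and lists were chosen with earlier results of these data known. Values per library were given for members with an unadjusted p under 0.05, members whose genotypes did not overlap, and the highest member of each family. Up to 4 members of smallest p under 0.05 were named per list, for sex and for the interaction. Nrp1, Plxdc2, Ephb1 and the other members given by mean or by single libraries were named after their values were seen. A p-value sets a difference against the spread between animals. With all libraries these were 5 per group for genotype, and 6 females and 4 males for sex. For the interaction each genotype held 3 females and 2 males. Counting error falls heavily on low genes, since about 50 cells gave each library.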

Additional observations from a re-analysis of the deposited data

Results flagged for a closer look

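In 18 of the members, the 36 groups of 5 libraries were checked for a single library standing apart. These members were chosen by level, by p-value in these data or after their values were seen. The usual chance rate of about 1 in 20 therefore does not apply to them. Such a library was seen 4 times. Epha4 was at 221 CPM in HSA-NRTN replicate 2 and at most 63.8 CPM in the others of that group. Sema3d was at 87.0 CPM in the same library against at most 10.8 CPM. Sema3e, a secreted ligand of plexin-D1, was at 111 CPM in HSA-NRTN replicate 1 against at most 21.6 CPM. Plxna2 was at 92.0 CPM in wild-type replicate 1 against at most 46.8 CPM. HSA-NRTN replicate 2 and wild-type replicate 1 held the highest and the second highest summed astrocyte markers, 105 and 81.0 CPM. In wild-type replicate 1, Gja1 at 52.1 and Aqp4 at 26.2 CPM made up most of that sum, with Gfap and Aldh1l1 at 0. HSA-NRTN replicate 1, where Sema3e stood apart, summed to 32.0 CPM. Astrocyte markers were not alone in this. HSA-NRTN replicate 2 and wild-type replicate 1 also held the 2 highest sums of other markers. These were oligodendrocyte (1398 and 600 CPM), endothelial (23.8 and 18.8 CPM) and inhibitory interneuron markers (161 and 172 CPM). For excitatory interneuron, fibroblast and microglial markers other libraries were highest. The part of RNA of any of these cells in the values that stood apart was not tested.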

How the results depend on the processing

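With all libraries edgeR called 0 members for genotype. The count was 1, Plxdc1, with no filter beyond 1 count, in limma voom using sample quality weights, with the robust fit, with a covariate for sex or for genes detected, and with edgeR's adjusted deviances, the last chosen after seeing the data. It was 2, Plxdc1 and Nrp2, in DESeq2, also when run on edgeR's genes (added later). The other planned settings gave 0, and leaving out 1 library 0 to 1. For sex the count was 0, but 2 with no filter (Sema3d, Sema3e), 1 in DESeq2 (Sema4d) and 1 with sample quality weights (Sema3e). For the interaction it was 0 under all 18 alternatives. Some log2 fold changes turned sign, among them that of Efnb2, at -0.47 with all libraries. A covariate for the runs of animal numbers gave 0.0394 for Efna5 and 0.0792 for Efnb2, and one for genes detected gave 0.0476 for Plxna4 and 0.0389 for Sema6a. Females alone gave 0.23 for Efna5 and males alone 0.066 for Plxna4. With 1 library left out, values ran from -0.8029 to 0.5148 for Efnb2 (positive without wild-type replicate 4) and from -0.2004 to 0.0781 for Plxna4 (positive without HSA-NRTN replicate 3, at 0.0286, HSA-NRTN replicate 5, at 0.0499, or wild-type replicate 2). The cause was not tested. Efnb2 fell under the filter on low counts in males alone. No paired analysis was possible because the labels give no replicate numbers shared between the genotypes.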

Other observations

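The class 3 semaphorin genes Sema3d, Sema3a, Sema3e and Sema3c lie on chromosome 5 of GRCm38 between 12383385 and 17730268, and their levels were unlike in steadiness. The coefficient of variation over the 10 libraries was 17.2% for Sema3a, 53.9% for Sema3c, 96.9% for Sema3d and 161% for Sema3e. Sema3e, which marks particular motor pools in the embryo, was at 0 CPM in wild-type replicate 3 and 111 CPM in HSA-NRTN replicate 1. The median of that coefficient was 59.0% over the 38 members tested and 48.4% over all genes tested, at median wild-type levels of 21.3 and 24.1 CPM. Summed over the 48 members, the level ran from 1326 to 1750 CPM in wild-type and from 1166 to 1780 CPM in HSA-NRTN libraries.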
